A study of Mus musculus with 40 samples.

Results

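Dok2, Ptgds, Fgf11, Zg16, Krt80, Adamtsl5 and Mapk13 are 7 mouse genes that were chosen by their measured values: the mean RNA level of each was higher in Hira KO than in WT cells in all 4 blood progenitor populations sorted by H2B-GFP. All 7 were found in each of the 6 expression tables, which list between 16344 and 26640 genes. The data are 40 RNA sequencing libraries from bone marrow of C57BL/6 mice. The H2B-GFP cohort (24 libraries) held KO and WT libraries, 3 of each, of GFP-high hematopoietic stem cells (HSCs), GFP-low HSCs, GFP-high multipotent progenitors (MPPs) and GFP-low MPPs. The cohort of total cells (16 libraries) held 4 KO and 4 WT libraries each of HSCs and MPPs sorted without regard to GFP. KO mice carried Mx1-Cre and Hira fl/fl, so that Cre, which interferon switches on, removes the floxed gene once poly(I:C) is given. Poly(I:C) mimics viral RNA and itself induces interferon. Mx1-Cre also acts outside blood cells. Poly(I:C) was given as 2 doses of 20 µg, and total cells (2500 per library) were taken 1 week after the first dose. The mice of the H2B-GFP cohort also carried Rosa26-M2rtTA and TetOP-H2B-GFP. They drank doxycycline (2 mg/ml) for 6 weeks to load chromatin with GFP, and cells were sorted after 17 days without it, 15 days having gone by since poly(I:C) ended. GFP-high cells have divided little in that time and GFP-low cells more. For WT mice the labels give the genotype as WT with no further alleles, and no age is given.

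Histone H3.3 enters chromatin independently of DNA replication, and HIRA is one of the chaperones that put it there. The 7 genes are not known as 1 pathway. Dok2, Mapk13 and Fgf11 encode signalling or channel-associated proteins inside the cell: DOK2 is an adaptor of blood cells that restrains tyrosine kinase and Ras signals and, with DOK1, holds back myeloid expansion in mice. MAPK13 is the p38 delta kinase, which is expressed in neutrophils and epithelia. FGF11 belongs to the FGF homologous factors, which stay inside the cell and are known mainly from neurons. Ptgds, Zg16 and Adamtsl5 encode secreted proteins. PTGDS is the lipocalin-type prostaglandin D2 synthase of brain coverings and heart, ZG16 is a lectin of intestinal goblet cells, and ADAMTSL5 is an ADAMTS-like glycoprotein without a protease domain that binds microfibrils. Krt80 encodes a type II keratin of epithelia.

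The genes lie on 7 chromosomes (GENCODE annotation on GRCm38) and all are protein coding. Dok2 is at chr14:70766036-70778495 on the plus strand and Mapk13 at chr17:28769297-28780233 on the plus strand. The other 5 are on minus strands: Ptgds at chr2:25466709-25470046, Fgf11 at chr11:69796068-69801857, Zg16 at chr7:127050156-127087328, Krt80 at chr15:101347444-101370162 and Adamtsl5 at chr10:80339110-80348412. Since the genes were chosen to move together, their promoters are shown where the RefSeq promoter table (GRCm38.p6, 250 bases before to 50 after the start) held them, which was so for 4 of 7. Capitals mark every match, on either strand, to any of 9 motifs searched: the GC box as GGGCGG, the CAAT box as CCAAT, the TATA box as TATAAA, the E-box as CACGTG, the AP-1 site as TGACTCA, the GATA site as AGATAA, the ETS site as CCGGAAG, the RUNX site as TGTGGTT, and an interferon response motif made of GAAA, any 2 bases and GAAA.
Ptgds (chr2:25469700-25469999, minus strand): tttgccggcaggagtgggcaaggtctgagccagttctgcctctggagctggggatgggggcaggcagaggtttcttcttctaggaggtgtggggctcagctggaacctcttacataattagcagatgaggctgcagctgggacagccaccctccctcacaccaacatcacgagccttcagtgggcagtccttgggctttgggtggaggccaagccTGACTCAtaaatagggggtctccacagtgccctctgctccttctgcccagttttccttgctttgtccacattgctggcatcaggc
Fgf11 (chr11:69802231-69802530, minus strand): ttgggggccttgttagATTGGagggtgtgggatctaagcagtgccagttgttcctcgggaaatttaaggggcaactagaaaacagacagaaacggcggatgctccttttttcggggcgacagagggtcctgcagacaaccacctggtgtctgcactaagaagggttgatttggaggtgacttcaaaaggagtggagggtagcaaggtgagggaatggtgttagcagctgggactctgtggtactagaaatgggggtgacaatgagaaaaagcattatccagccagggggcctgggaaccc
Adamtsl5 (chr10:80348399-80348698, minus strand): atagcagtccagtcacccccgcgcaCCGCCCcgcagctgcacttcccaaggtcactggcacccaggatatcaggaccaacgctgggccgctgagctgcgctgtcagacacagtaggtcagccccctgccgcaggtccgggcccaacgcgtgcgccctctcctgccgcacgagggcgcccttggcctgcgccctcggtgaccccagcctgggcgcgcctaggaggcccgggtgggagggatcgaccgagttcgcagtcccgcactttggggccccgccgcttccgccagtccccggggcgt
Mapk13 (chr17:28769067-28769366, plus strand): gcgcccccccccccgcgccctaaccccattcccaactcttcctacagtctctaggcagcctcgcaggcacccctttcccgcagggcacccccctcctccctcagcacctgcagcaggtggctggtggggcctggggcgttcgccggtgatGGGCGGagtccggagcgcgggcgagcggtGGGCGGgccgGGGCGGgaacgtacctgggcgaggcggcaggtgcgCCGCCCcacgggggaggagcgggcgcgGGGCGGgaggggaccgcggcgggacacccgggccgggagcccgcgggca
No motif was found in more than 2 of these 4 promoters. Ptgds held TGACTCA from 35 bases before its start, a motif present in 5.2% of the 32851 promoters in the table. Fgf11 held CCAAT in the reverse direction (37.4% of all promoters). GGGCGG was found once in Adamtsl5 and 5 times in Mapk13, with no overlap between matches, and is held by 35.7% of all promoters. GC content was 78% in Mapk13, 72% in Adamtsl5, 57.7% in Ptgds and 52.3% in Fgf11, against a median of 52.7% over all promoters. The 4 promoters thus shared no motif of this search, and a match describes the letters only.

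Several facts of the libraries bear on every value that follows. Depth, recovered from the steps of the FPKM values (fragments scaled to gene length and library size), ran from 5.82 M (1e6) reads in a GFP-low MPP library to 9.57 M in a GFP-high MPP library of the H2B-GFP cohort. Total cells were sequenced more deeply, with 16.78 to 30.58 M reads per library. Each table was scaled by itself, so levels are compared within a table only. Of 10 HSC and MPP markers (Kit, Cd34, Ly6a, Ptprc, Procr, Hlf, Mecom, Flt3, Cd48 and Slamf1), all 10 in HSC tables and 9 in MPP tables reached 1 FPKM in every library, Slamf1 being the exception. Hira itself ranged from 1.07 to 2.74 FPKM in KO and 1.22 to 3.22 FPKM in WT libraries of the H2B-GFP cohort, and from 0.72 to 1.45 FPKM in KO and 0.84 to 1.66 FPKM in WT libraries of total cells. A value per gene also counts reads outside the floxed exons, and the labels do not name those exons, so Hira does not check the labels here.

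KO replicate 2 stood apart in all 4 GFP populations. It had 0.237 to 0.403 FPKM of Xist, the RNA of the inactive X chromosome, and 5.01 to 7.24 FPKM of the Y-linked Ddx3y, as cells of a male would. Every other library of the cohort had 26.9 to 44.3 FPKM of Xist, and at most 0.126 FPKM of Ddx3y. Libraries of the same genotype and replicate number deviated together between GFP tables. The correlation of their deviations from the group means across genes was above 0 in 35 of 36 pairs (median 0.26). Pairs with different numbers were above 0 in 7 of 72 (median -0.12). Deviations sum to 0 within a group, so these pairs are pushed below 0 when same-numbered pairs are above it. They are not an independent comparison. The labels do not say whether a number marks 1 mouse, so the 4 GFP populations cannot be taken as 4 independent sets of animals. Where cells are measured in bulk, a change in the share of a cell type and a change in RNA per cell cannot be told apart.

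In the H2B-GFP cohort all 7 means were higher in KO in each of the 4 populations, which is what chose the genes and is given as a description. Of all tested genes 49.6% were higher by mean in KO GFP-high HSCs, 49.2% in their GFP-low counterparts, and 51% and 50.4% in GFP-high and GFP-low MPPs. In 6 genes every KO library lay above every WT library in all 4 populations, while Mapk13 did so only in GFP-high MPPs. Libraries did not overlap for 6 of 7 genes in GFP-high HSCs, against 8.61% of all tested genes higher in that way, and for 6 in GFP-low HSCs (7.67%). In MPPs the counts were 7 among GFP-high cells (6.74%) and 6 among GFP-low cells (9.73%). Because these contrasts chose the genes, nothing is read from those shares. Of 10166 genes tested in all 4 populations, 43 (0.423%) had every KO library above every WT library in all 4 and 36 (0.354%) had every KO library below. KO means were higher in all 4 for 1595 genes (15.7%). Ranked by the mean of the 4 log2 differences, Zg16 was 5th with 1.37, Krt80 11th with 1.06, Ptgds 15th with 1.04 and Dok2 19th with 1.00. Fgf11 was 35th with 0.82, Adamtsl5 49th with 0.73 and Mapk13 60th with 0.68. Mapk13 had its smallest difference in GFP-low MPPs, 0.33, and its neighbours by smallest difference, Cela1 just above and Cox6b2 just below, also had 0.33. All log2 differences here are KO minus WT of log2(FPKM + 1), which understates the change of genes at low levels.

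**Figure D1:**
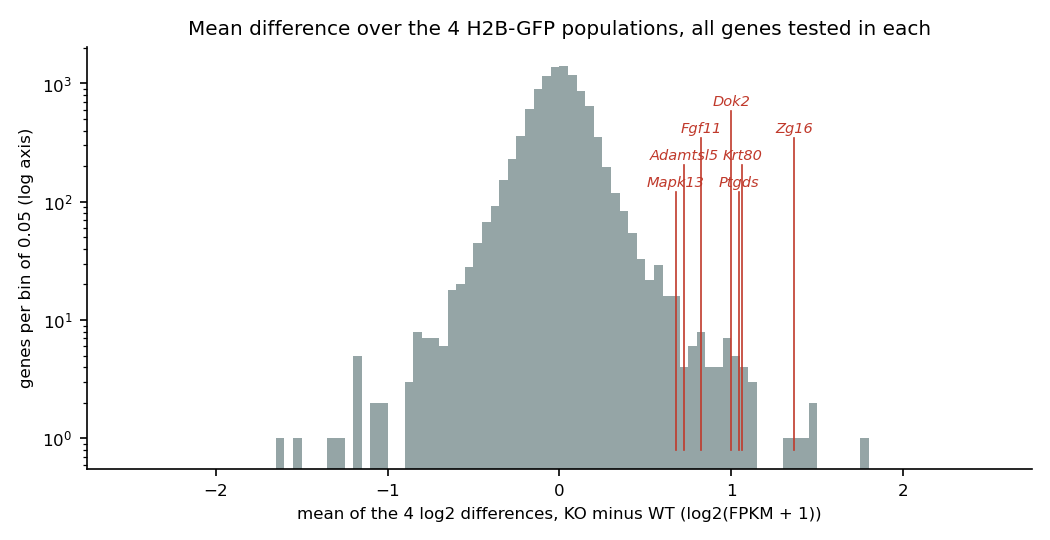
Histogram of the mean of the 4 log2 differences (KO minus WT, log2(FPKM + 1), x axis) over the 10166 genes tested in all 4 GFP populations, with the number of genes per bin on a log y axis. Red lines mark the 7 genes, which lie between 0.68 (Mapk13) and 1.37 (Zg16) in the right tail.

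Dok2, the adaptor that restrains tyrosine kinase signals, was the most abundant of the 7 per length in every GFP library. It had 46.8, 47.2 and 69.5 FPKM in KO GFP-high HSCs, against 26.7, 17.0 and 27.4 FPKM in WT. GFP-low HSCs had 68.2, 59.8 and 57.7 FPKM in KO and 33.2, 24.3 and 26.5 FPKM in WT. In these HSC populations the KO mean was 2.3-fold and 2.21-fold the WT mean, and the lowest KO library lay well above the highest WT library. KO GFP-high MPPs held 59.9, 66.2 and 56.1 FPKM, against 30.7, 24.8 and 33.2 FPKM in WT. KO GFP-low MPPs held 41.4 to 52.5 FPKM (mean 48 ± 5.86), against 26.3 to 31.6 FPKM (mean 29.6 ± 2.81) in WT (SD, n = 3 each). The ratio of means was 2.06 in GFP-high and 1.62 in GFP-low MPPs, and Dok2 had its smallest log2 difference, 0.68, in GFP-low MPPs. Each of these values rested on 493 to 1859 reads.

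Mapk13, the p38 delta kinase, was the least uniform. In GFP-high MPPs it had 4.4, 4.48 and 4.66 FPKM in KO and 1.62, 1.74 and 1.62 FPKM in WT, so the groups were far apart and each was tight. In GFP-low HSCs the KO libraries had 0.395, 2.7 and 7.78 FPKM and the WT libraries 0.672, 0.821 and 1.26 FPKM, so that KO held both the lowest and the highest value. WT libraries of GFP-low HSCs alone would not have met the filter of 1 FPKM in 3 libraries. GFP-high HSCs had 3.02, 5.51 and 2.09 FPKM in KO and 2.53, 2.43 and 1.79 FPKM in WT. GFP-low MPPs had 3.39, 1.97 and 1.71 FPKM in KO and 1.94, 1.88 and 1.12 FPKM in WT. KO and WT libraries overlapped in these 3 populations, so the gene was raised in all 4 only by its mean. Its log2 difference was 0.42 in GFP-high HSCs and 0.12 without KO replicate 2, and 0.91 in GFP-low HSCs and 0.26 without KO replicate 3. In GFP-low MPPs it was 0.33, and 0.12 without KO replicate 1.

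Fgf11, the FGF homologous factor, had 7.02, 5.88 and 6.72 FPKM in KO GFP-high HSCs and 2.85, 2.98 and 3.59 FPKM in WT. KO GFP-low HSCs had 3.93, 6.15 and 5.71 FPKM, against 2.04, 2.7 and 3.07 FPKM in WT. In GFP-high MPPs the values were 9.13, 7.67 and 4.75 FPKM in KO and 4.4, 3.2 and 3.58 FPKM in WT. KO replicate 3 of this population came close to the highest WT library, while the HSC groups were farther apart. KO GFP-low MPPs had 4.85, 4.4 and 4.29 FPKM, against 2.32, 1.45 and 2.29 FPKM in WT. The log2 differences of Fgf11, 0.76 to 0.88, were the most even of the 7 across the populations, with ratios of means of 1.93 to 2.24.

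Ptgds, the prostaglandin D2 synthase, had 4.63, 5.04 and 5.11 FPKM in KO GFP-high HSCs, against 1.3, 1.71 and 1.71 FPKM in WT. KO GFP-low HSCs had 11.3, 4.93 and 3.33 FPKM and WT 1.53, 2.47 and 1.81 FPKM. The KO libraries were close together in GFP-high HSCs and spread widely in GFP-low HSCs, where the log2 difference of 1.22 became 0.80 without KO replicate 1. GFP-high MPPs held 4.83, 8.05 and 6.39 FPKM in KO and 2.9, 3.52 and 1.82 FPKM in WT. GFP-low MPPs held 5.98, 5.13 and 7.76 FPKM in KO and 3.03, 4.17 and 2.76 FPKM in WT. The ratio of means was 3.13 in GFP-high and 3.36 in GFP-low HSCs, and 2.34 in GFP-high and 1.89 in GFP-low MPPs. In limma's test across all genes of each GFP table, Ptgds in GFP-high HSCs was the only member with an adjusted p under 0.05 (0.0383, against 0.0276% of all tested genes called there), a contrast that chose it. The call was lost without any 1 of the 6 libraries, with no filter, with the replicate number as a block and in the test on recovered reads (voom), which called Krt80 instead. This contrast chose Krt80 too, and Krt80 passed the filter of 1 FPKM in 3 libraries there through KO alone. In the other 3 GFP tables limma and voom called 0 members, against 0.32% of all genes in GFP-low MPPs and 0% in both GFP-low HSCs and GFP-high MPPs.

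Zg16, the goblet cell lectin, had 4.6, 8.42 and 3.57 FPKM in KO GFP-high HSCs and 1.39, 0.432 and 0.84 FPKM in WT. KO GFP-low HSCs had 6.12, 8.85 and 8.34 FPKM, against 1.82, 2.6 and 2.22 FPKM in WT. The ratio of means was 6.23 in GFP-high HSCs, the largest of any member in any population, and 3.51 in GFP-low HSCs. Values in GFP-high MPPs were 1.25, 2.11 and 1.84 FPKM in KO and 1.22, 0.301 and 0.299 FPKM in WT. KO GFP-low MPPs had 3.21, 4.44 and 7.99 FPKM, against 1.69, 1.1 and 0.684 FPKM in WT. The lowest KO and the highest WT library of GFP-high MPPs were nearly equal. Zg16 values rest on few reads: 15 to 26 in KO and 4 to 20 in WT GFP-high MPPs, and 40 to 99 in KO and 6 to 19 in WT GFP-high HSCs. WT libraries alone would not have met the filter of 1 FPKM in 3 libraries in GFP-high HSCs, GFP-high MPPs or GFP-low MPPs. The lowest WT values there were 0.432, 0.299 and 0.684 FPKM, so Zg16 was tested there because KO was high.

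Adamtsl5, the ADAMTS-like glycoprotein, had 5.69, 4.04 and 4.18 FPKM in KO GFP-high HSCs and 1.82, 2.91 and 3.17 FPKM in WT. In GFP-low HSCs KO libraries had 6.58, 3.92 and 3.54 FPKM and WT libraries 2.1, 2.17 and 1.91 FPKM. WT libraries were tight in GFP-low HSCs, while 1 KO library stood above the other 2 in both HSC populations. KO GFP-high MPPs had 1.89, 2.38 and 1.95 FPKM, against 1.04, 1.28 and 1.05 FPKM in WT. KO GFP-low MPPs had 1.44, 2.26 and 3.35 FPKM, against 0.761, 0.722 and 0.817 FPKM in WT. No WT library of GFP-low MPPs reached the filter of 1 FPKM, so Adamtsl5 passed it there through KO alone. The log2 difference was 0.53 to 0.88, and the ratio of means 1.76 to 3.07.

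Krt80, the type II keratin, had 1.61, 2.24 and 2.41 FPKM in KO GFP-high HSCs and 0.324, 0.49 and 0.328 FPKM in WT. KO GFP-low HSCs had 1.22, 2.46 and 1.54 FPKM, against 0.523, 0.796 and 0.604 FPKM in WT. WT HSCs were thus all under 1 FPKM and KO HSCs all above it, so Krt80 passed the filter in both HSC populations through KO alone. For GFP-high MPPs the values were 3.54, 6.0 and 3.14 FPKM in KO and 1.3, 0.858 and 0.928 FPKM in WT. WT libraries of GFP-high MPPs alone would not have met the filter either. For GFP-low MPPs they were 3.95, 4.49 and 1.99 FPKM in KO and 1.05, 1.16 and 1.06 FPKM in WT. For HSCs the ratio of means was 5.48 in GFP-high and 2.72 in GFP-low cells, and for MPPs 4.11 in GFP-high and 3.19 in GFP-low cells. KO replicate 2, the male library, was the highest KO library of Krt80 in 3 of the 4 populations, and leaving it out gave log2 differences of 1.11 and 0.54 in GFP-high and GFP-low HSCs, and of 1.10 and 0.88 in GFP-high and GFP-low MPPs.

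**Figure D2:**
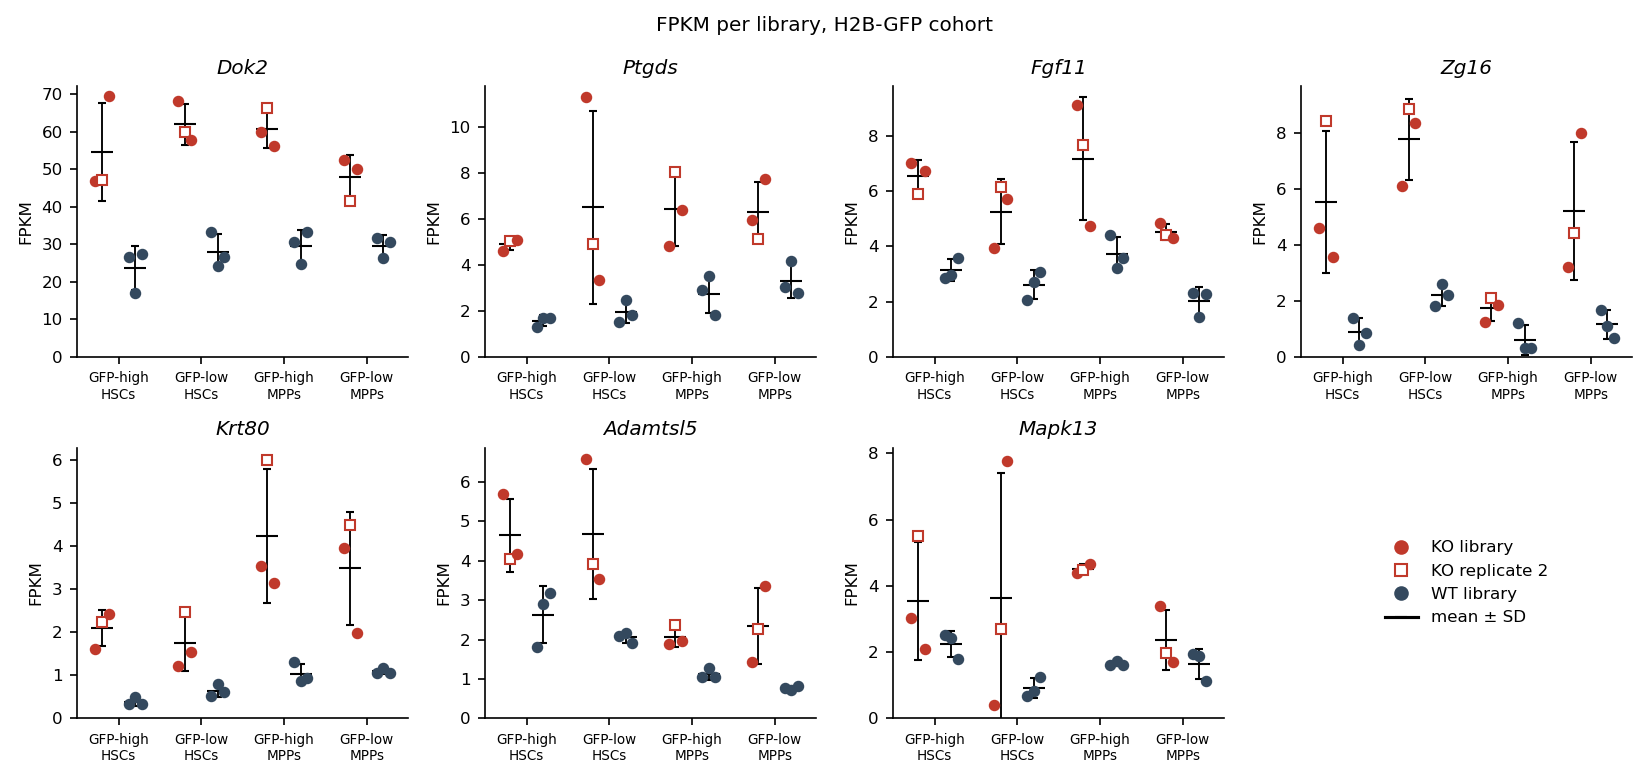
FPKM (y axis, linear from 0) of each gene in each library of the 4 GFP populations, with KO (red) left of WT (blue), bars for mean ± SD (n = 3 each, cut at 0) and an open square for KO replicate 2. KO and WT points are separate in all 4 populations for 6 genes, and overlap for Mapk13 outside GFP-high MPPs.

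Total HSCs and total MPPs, taken 1 week after the first poly(I:C) dose, were not part of the rule that chose the genes. Earlier results of these data were known when the genes were chosen, so tests in total cells are not fully independent of that choice. No member passed there: limma on log2(FPKM + 1) gave 0 of 5 tested members an adjusted p under 0.05 in total HSCs, where 0.124% of all tested genes passed, and 0 of 6 in total MPPs, where 0.108% passed. The test on recovered reads (voom) also called 0 in both. At an unadjusted p under 0.05, 3 of 5 tested members (Dok2, Fgf11 and Zg16) were higher in KO total HSCs, against 4.87% of all tested genes. In total MPPs 3 of 6 (Fgf11, Zg16 and Krt80) were higher in KO, against 8.77%. Members not tested had under 1 FPKM in too many libraries: Krt80 and Mapk13 in HSCs and Adamtsl5 in MPPs. The log2 difference was above 0 for 7 of 7 members in total HSCs, against 49.8% of all tested genes, and for 5 of 7 in total MPPs, against 50.4%, with the members not tested taken from the fit with no filter. It was near 0 for Krt80 in HSCs (0.05), and in MPPs it was -0.04 for Dok2 and -0.01 for Mapk13. The median log2 difference of the tested members was 0.38 in HSCs and 0.33 in MPPs, against -0.00 and 0.00 over all tested genes. A member that passed the filter because KO was high would raise such a median. In total HSCs the lowest WT value of a tested member was 1.0 FPKM, for Ptgds. In total MPPs Krt80 and Zg16 reached 1 FPKM in every KO library, but their WT libraries alone would not have met the filter (lowest WT 0.536 and 0.655 FPKM). Both were tested there because KO was high, and both are among the 3 members higher at an unadjusted p under 0.05. The median of 0.33 and that count in MPPs therefore carry this bias.

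Zg16 came nearest to the threshold. It had 6.85, 4.21, 2.69 and 5.94 FPKM in KO total HSCs, against 1.55, 2.43, 2.03 and 1.95 FPKM in WT, so every KO library lay above every WT library, which held for 2.81% of all tested genes. The means were 4.92 ± 1.85 FPKM in KO and 1.99 ± 0.361 FPKM in WT (SD, n = 4 each), with a log2 difference of 0.94 (95% interval 0.46 to 1.41, limma adjusted p = 0.151). The exact two-sided permutation test gave p = 0.0286, the smallest that 4 against 4 allows. In total MPPs Zg16 had 3.52, 2.7, 3.21 and 2.86 FPKM in KO and 0.655, 1.04, 2.9 and 2.48 FPKM in WT. The highest WT library of MPPs lay within the KO range, and the log2 difference was 0.64 (0.07 to 1.22, limma adjusted p = 0.255, exact permutation p = 0.0857).

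Fgf11 was higher by mean in both total populations without passing the test. It had 2.77, 2.6, 4.5 and 3.2 FPKM in KO total HSCs and 2.07, 2.06, 3.16 and 1.8 FPKM in WT, a log2 difference of 0.38 (0.00 to 0.76, limma adjusted p = 0.495, exact permutation p = 0.0857). Total MPPs had 3.36, 1.86, 3.42 and 2.66 FPKM in KO and 1.68, 1.87, 1.3 and 1.78 FPKM in WT, a log2 difference of 0.51 (0.12 to 0.90, limma adjusted p = 0.203, exact permutation p = 0.0571). Each population had KO and WT libraries that overlapped, in MPPs through KO replicate 2 alone.

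Dok2 had 36.9, 40.2, 37.4 and 24.4 FPKM in KO total HSCs, against 18.7, 28.9, 20.7 and 24.1 FPKM in WT. Of the KO libraries, 3 of 4 lay above all WT libraries and the other, KO replicate 4, lay within the WT range, with a log2 difference of 0.56 (0.19 to 0.94, limma adjusted p = 0.267, exact permutation p = 0.0571). In total MPPs Dok2 had 15.7, 18.0, 24.6 and 31.0 FPKM in KO and 16.8, 20.3, 23.0 and 30.9 FPKM in WT. These groups covered the same range, with a log2 difference of -0.04 (-0.54 to 0.46, limma adjusted p = 0.952, exact permutation p = 0.943). The difference between the KO effects in total MPPs and total HSCs was -0.60 (-1.25 to 0.04, limma adjusted p = 0.654), so the effects were not shown to differ.

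Ptgds had 1.83, 2.87, 1.38 and 2.17 FPKM in KO total HSCs, against 1.41, 1.0, 2.42 and 1.25 FPKM in WT. Total MPPs had 3.68, 4.3, 3.91 and 4.64 FPKM in KO and 2.86, 5.16, 2.83 and 3.92 FPKM in WT. Libraries overlapped in both populations, and the highest MPP library was WT. The log2 differences were 0.29 (-0.15 to 0.73, limma adjusted p = 0.664, exact permutation p = 0.286) in HSCs and 0.15 (-0.23 to 0.53, limma adjusted p = 0.704, exact permutation p = 0.543) in MPPs.

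Krt80 in total HSCs had 0.851, 1.03, 0.871 and 0.566 FPKM in KO and 0.143, 1.23, 0.611 and 1.32 FPKM in WT, too low to be tested with the filter. In total MPPs it had 1.33, 2.12, 1.54 and 3.78 FPKM in KO and 0.66, 1.47, 0.536 and 1.58 FPKM in WT, a log2 difference of 0.61 (0.03 to 1.19, limma adjusted p = 0.282, exact permutation p = 0.143). The groups overlapped in MPPs, where 2 of 4 KO libraries lay above all WT libraries. Adamtsl5 had 4.46, 2.92, 2.86 and 3.23 FPKM in KO total HSCs and 2.66, 3.81, 2.32 and 2.67 FPKM in WT, a log2 difference of 0.18 (-0.17 to 0.52, limma adjusted p = 0.741, exact permutation p = 0.371). In total MPPs it had 1.15, 1.0, 0.774 and 1.8 FPKM in KO, against 0.275, 0.144, 0.451 and 0.601 FPKM in WT. All KO libraries of MPPs lay above all WT libraries, as held for 5.08% of all tested genes, but at levels below the filter. The fit with no filter gave Adamtsl5 in total MPPs a log2 difference of 0.66 (0.27 to 1.06, limma adjusted p = 0.248), and the exact permutation p was 0.0286.

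Mapk13 in total HSCs had 0.146, 1.46, 1.12 and 0.0265 FPKM in KO and 0.196, 0.136, 0.148 and 0.251 FPKM in WT, where the lowest KO library rests on 1 read and the highest on 63. The KO group thus held 2 libraries above and 2 libraries within or below the WT range. In total MPPs it had 1.11, 2.02, 2.55 and 1.67 FPKM in KO and 2.06, 1.21, 2.11 and 1.95 FPKM in WT, with a log2 difference of -0.01 (-0.45 to 0.43, limma adjusted p = 0.987, exact permutation p = 1). The groups covered the same range. For no member did the KO effect in total MPPs differ from that in total HSCs by the test of the difference, with adjusted p values of 0.654 to 0.939 over 14447 genes.

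**Figure D3:**
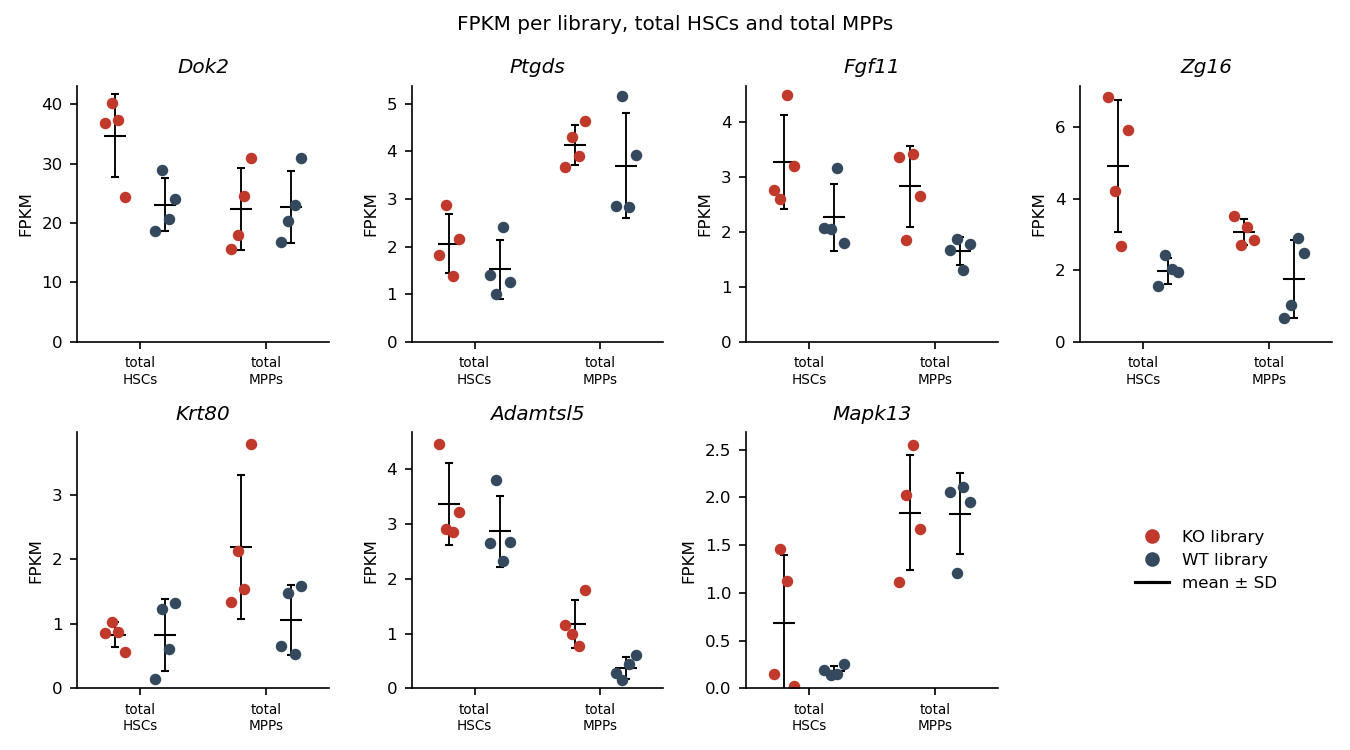
FPKM (y axis, linear from 0) of each gene in each library of total HSCs and total MPPs, with KO (red) left of WT (blue) and bars for mean ± SD (n = 4 each, cut at 0). KO and WT are separate for Zg16 in HSCs and for Adamtsl5 in MPPs and overlap in the other 12 cases.

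**Figure D4:**
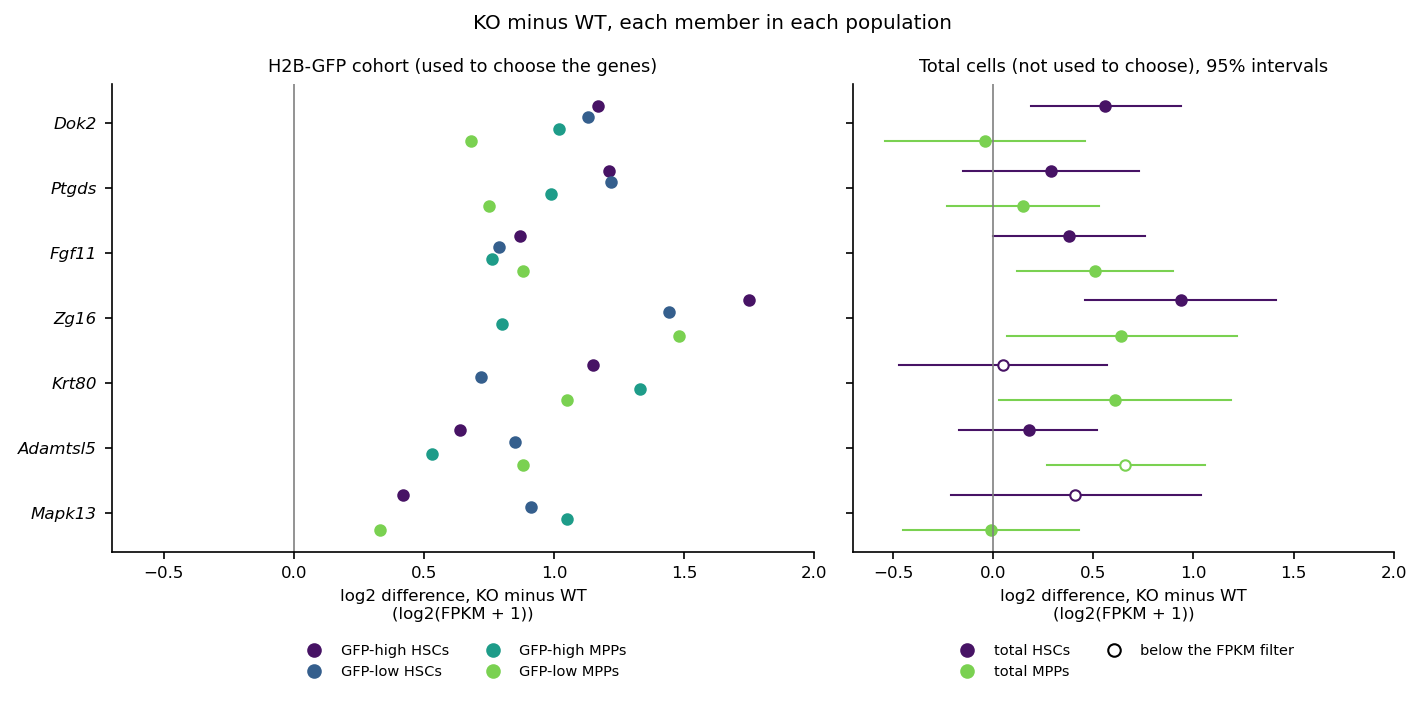
Log2 difference of KO minus WT (x axis, log2(FPKM + 1)) of each gene in the 4 GFP populations (left, points with no test) and in total HSCs and MPPs (right, with 95% intervals from limma; open points did not pass the FPKM filter). Every GFP point lies above 0, from 0.33 to 1.75, and the points of total cells run from -0.04 to 0.94.

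Marker levels were also summed for 11 lists in 6 populations. Of these 66 sums, 8 were higher and 3 lower in every KO library than in every WT library. Single genes were higher in that way in 2.81% (total HSCs) to 9.73% (GFP-low MPPs) of those tested, and no share is given for lower. The count alone is therefore not read as a change in cell types. Neutrophil markers (8 genes such as S100a8, Ngp and Ltf, summed) were at 2020, 4700 and 28100 FPKM in KO GFP-low HSCs, against 3550, 3770 and 3870 FPKM in WT. They were at 3770, 6130 and 23400 FPKM in KO GFP-high MPPs, against 4090, 4650 and 5560 FPKM in WT. Mapk13 followed this order in GFP-low HSCs, with its lowest value in KO replicate 1 and its highest in KO replicate 3. Its 3 KO values in GFP-high MPPs kept the same order of replicates as the markers but lay within 4.4 to 4.66 FPKM, while the markers spread widely. Neutrophil sums were lower in every KO library of GFP-high HSCs, at 4150 to 5300 FPKM against 5320 to 7160 FPKM in WT. Over the 24 GFP libraries, the deviation of Mapk13 from its group mean correlated with that of the neutrophil sum with r = 0.77, as a description of libraries that share depth and scaling. The same r was -0.52 for Adamtsl5, -0.48 for Ptgds, -0.20 for Dok2, -0.15 for Fgf11, 0.02 for Krt80 and 0.07 for Zg16. KO GFP-low HSCs had the widest spread of Mapk13 and of the neutrophil sum. Their KO replicate 1 had the lowest neutrophil sum of the GFP libraries and the highest Ptgds (11.3 FPKM) and Adamtsl5 (6.58 FPKM). The r of Mapk13, Adamtsl5 and Ptgds therefore lean on that group and were not computed without it. The part of neutrophil RNA in the Mapk13 differences was not tested.

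**Figure D5:**
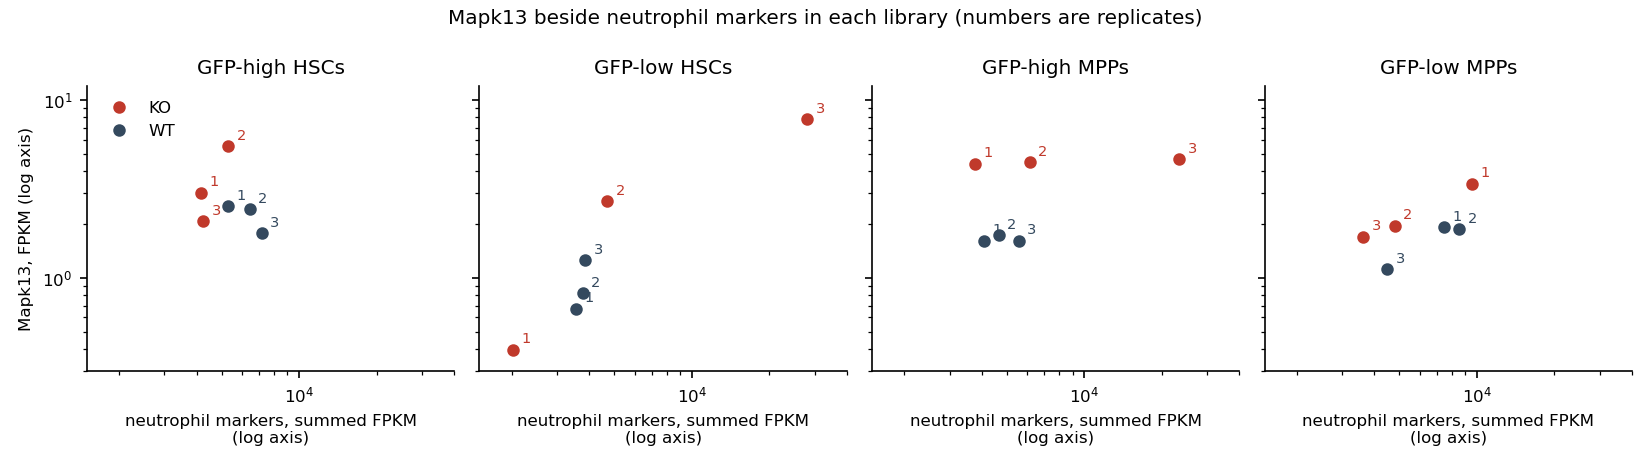
Mapk13 (y axis, FPKM, log) against the summed FPKM of 8 neutrophil markers (x axis, log) in each library of the 4 GFP populations, KO in red and WT in blue, with replicate numbers. In GFP-low HSCs the points rise together from KO replicate 1 (0.395 FPKM) to KO replicate 3 (7.78 FPKM), while in GFP-high MPPs the KO points keep that order and stay between 4.4 and 4.66 FPKM.

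In total HSCs, where Zg16 and Dok2 had their larger total-cell differences, marker sums of 2 other cell types were higher in every KO library. Macrophage markers summed to 34.2 to 38.1 FPKM in KO and 19.7 to 25 FPKM in WT. Megakaryocyte and platelet markers summed to 1380 to 1840 FPKM in KO and 1100 to 1290 FPKM in WT. Limma passed 1 of 7 tested megakaryocyte and platelet markers, higher in KO, and 0 of 6 macrophage markers, against 0.124% of all tested genes. Mast cell and basophil markers were at 49.1 to 63.7 FPKM in KO and 38.3 to 52 FPKM in WT, with overlap. In total MPPs the mast cell and basophil sum was 35.9 to 87.7 FPKM in KO and 18.1 to 33 FPKM in WT, without overlap. Of 5 tested mast cell and basophil markers there, 4 were positive (median log2 difference 1.40). Limma passed 1 of them, higher in KO, against 0.108% of all tested genes. The summed HSC and MPP markers were lower in every KO library of total MPPs, at 413 to 471 FPKM against 484 to 546 FPKM in WT, with 8 of 9 tested markers negative (median log2 difference -0.16). Of these 9, limma passed 0, 3 were lower at an unadjusted p under 0.05, and voom called 1. Over the 6 populations 5.32% of all gene tests were lower at that unadjusted p. Neutrophil sums of total cells overlapped, at 337 to 655 FPKM in KO and 170 to 1710 FPKM in WT HSCs, and at 453 to 4230 FPKM in KO and 1250 to 3750 FPKM in WT MPPs. In GFP-low HSCs 4 lists had higher sums in every KO library. Erythroid markers summed to 552, 378 and 1330 FPKM in KO and 213, 114 and 205 FPKM in WT, with 8 of 8 positive (median log2 difference 1.66). Of these 8, limma passed 0, 7 were higher at an unadjusted p under 0.05, and voom called 0. Over the 6 populations 5.72% of all gene tests were higher in that way. Erythroid markers were also 8 of 8 positive in total MPPs (median 0.99), with overlapping sums, while 6 of 8 were negative in GFP-high HSCs. In GFP-low MPPs limma passed 1 of 8, higher in KO, against 0.32% of all tested genes. Megakaryocyte and platelet sums of GFP-low HSCs were 505 to 655 FPKM in KO and 297 to 426 FPKM in WT. B cell sums of GFP-low HSCs were 34.5 to 54.6 FPKM in KO and 29.4 to 33.3 FPKM in WT. Stroma and endothelium markers in GFP-high MPPs summed to 18.6 to 21.7 FPKM in KO and 16.1 to 18.3 FPKM in WT. Their part in the member values was not tested. Glia and meninges markers, for the tissue best known for Ptgds, were the fourth such list in GFP-low HSCs and were low. In GFP-low HSCs they summed to 12.7, 7.82 and 8.77 FPKM in KO and 7.33 to 7.46 FPKM in WT, with the highest sum in KO replicate 1, which also had the highest Ptgds (11.3 FPKM) and Adamtsl5 (6.58 FPKM). In GFP-low MPPs they were lower in KO, at 5.83 to 7.2 FPKM against 7.42 to 7.66 FPKM in WT, and in the other 4 populations the groups overlapped. Mbp was the only one of them at 1 FPKM in every library. Among epithelial markers Krt5, Krt14 and Krt19 were listed in no table, Krt18 made up most of the sum, and the sums of KO and WT libraries overlapped in all 6 populations. The other goblet cell genes were near 0, with Spink4, Clca1 and Agr2 averaging 0.246, 0.0112 and 0.00735 FPKM over the tables.

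No other gene of the members' families and routes passed the limma test in any population. Across the 7 lists, 40 (total HSCs) to 46 (GFP-high MPPs) genes other than the members were tested in a population, and 0 of 256 tests passed in either direction. At an unadjusted p under 0.05, 28 of these tests (10.9%) were higher and 9 (3.52%) lower in KO, against 5.72% and 5.32% of all gene tests over the 6 populations. GFP-high HSCs held 12 of the 28 among 45 genes, against 5.64% of all tested genes, in a table that also chose the members. Their median log2 difference lay between -0.06 and 0.11. Of the DOK and Ras list, Dok1, the partner of DOK2, averaged 25.2 ± 1.42 FPKM in KO and 23.6 ± 2.62 FPKM in WT GFP-high HSCs (SD, n = 3 each), and its log2 differences over the 6 populations ran from -0.39 to 0.09. Csk, a kinase that inhibits Src kinases, ran from -0.04 to 0.36, and Inpp5d, the SHIP1 phosphatase, from -0.25 to 0.13. Dok3, named after its values were seen, had a mean log2 difference of 0.83 over the 4 GFP populations, the smallest being 0.38. Of 8 tested genes of this list, Dok2 included, 8 were positive in GFP-high HSCs and 8 in GFP-low HSCs (medians 0.12 and 0.15). Among all tested genes 49.6% and 49.2% were. In GFP-high MPPs 6 of 8 were positive, in GFP-low MPPs and total HSCs 4 each, and in total MPPs 3. Of the prostaglandin list, the cyclooxygenase Ptgs1, which makes the substrate of PTGDS, averaged 30.5 ± 2.1 FPKM in KO and 23.1 ± 1.52 FPKM in WT GFP-high HSCs (SD, n = 3 each). In total MPPs Ptgs1 was lower, at 11.3 ± 0.589 FPKM in KO and 15.4 ± 0.369 FPKM in WT (SD, n = 4 each, log2 difference -0.41, limma adjusted p = 0.0958). The prostaglandin E synthase Ptges3 ran from -0.27 to 0.28 and the thromboxane receptor Tbxa2r from -0.34 to 0.39. Ptges, another prostaglandin E synthase named after its values were seen, had a mean of 0.62 over the 4 GFP populations (smallest 0.24). Its log2 difference in GFP-high HSCs was 0.70 (limma adjusted p = 0.2). Tested genes of this list, Ptgds included, were 8 positive and 2 negative in GFP-high HSCs, and 3 positive and 7 negative in GFP-low MPPs.

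Of the p38 route, Mapk14, the p38 alpha kinase and the most abundant p38 isoform here, ran from -0.37 to 0.01, its activator Map2k3 from -0.23 to 0.15 and the p38-activated kinase Mapkapk3 from -0.17 to 0.07. The other low isoforms were named after their values were seen: Mapk12 (p38 gamma) averaged 5.02 ± 0.391 FPKM in KO and 2.59 ± 0.333 FPKM in WT GFP-high MPPs, and Mapk11 (p38 beta) 5.42 ± 1.42 FPKM in KO and 2.43 ± 0.512 FPKM in WT (SD, n = 3 each). Neither passed (log2 differences 0.75 and 0.89, limma adjusted p = 0.274 and 0.388). Over the populations where they were tested, Mapk12 ran from -0.15 to 0.82 (5 populations) and Mapk11 from -0.13 to 0.89 (4 populations). Of the 19 genes of the p38 list, Mapk13 included, 13 had a positive and 6 a negative log2 difference in GFP-high MPPs, with a median of 0.07. Of the FGF list, the other homologous factors Fgf12 and Fgf13 were below 0.5 FPKM in group means, while the FGF receptors Fgfr1 and Fgfrl1 ran from -0.01 to 0.53 and from -0.50 to 0.25, and Fgfr3 from 0.31 to 0.63 in the 3 populations where it was tested. Among keratins and cell junction genes, Krt18 ran from -0.44 to 0.14, Krt10 from -0.28 to 0.42 and the junction protein plakoglobin, Jup, from -0.25 to 0.53. Of the microfibril list, Ltbp3, a latent TGF-beta binding protein, had a negative log2 difference in 6 of 6 populations (-0.72 to -0.13, smallest limma adjusted p = 0.0686, in total MPPs, where the test on recovered reads gave 0.045), while the microfibril protein Mfap2 ran from 0.00 to 0.73.

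No neighbouring gene passed the test. Within 50 kb of the 7 genes lie 60 others, of which 33 were tested in at least 1 population. Of 173 limma tests 0 passed, 7 (4.05%) were higher and 8 (4.62%) lower at an unadjusted p under 0.05, against the same 5.72% and 5.32% of all gene tests, and the test on recovered reads called 0, with the smallest limma adjusted p at 0.129 for Fut7 near Ptgds in total MPPs. Beside Mapk13, Mapk14 and the acetylation reader Brpf3 had log2 differences of 0.01 and -0.09 in GFP-high HSCs. Around Fgf11, Polr2a (an RNA polymerase II subunit) and the acetylcholine receptor subunit Chrnb1 had 0.04 and 0.27 there. Plscr3, also near Fgf11, had 0.44 (limma adjusted p = 0.2), and 0.06 to 0.24 in the other GFP populations. In GFP-high HSCs, which also chose the members, 4 of 31 neighbours (12.9%) were higher and 0 lower at an unadjusted p under 0.05. Of all tested genes 5.64% were higher there. Clic3, a chloride channel family gene near Ptgds, averaged 2.5 FPKM in KO and 0.639 FPKM in WT GFP-high HSCs (log2 difference 1.13, limma adjusted p = 0.225), and -0.07 to 0.02 on the log2 scale in the other 3 GFP populations. Mvp (major vault protein) near Zg16 had 0.29, and Krt7 near Krt80 had 0.49 (limma adjusted p = 0.286). All 5 genes that overlap a member lie on the opposite strand: Xpo7 over the start of Dok2, Gm44939 and Gm22747 within Zg16, and Gm35853 and Mir1941 at Krt80. Xpo7, a nuclear export receptor, averaged 1.74 FPKM in KO and 1.86 FPKM in WT GFP-high HSCs, far below Dok2. Whether the libraries keep the strand is not stated, so reads of Krt80 and of its antisense partner cannot be told apart.

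The members were compared over the 24 GFP libraries by the Pearson correlation of log2(FPKM + 1) centred within each table. Among the 21 pairs of members r ran from 0.23 to 0.88 with a median of 0.76, much of which is the genotype difference that chose them. After the group means were removed as well, r ran from -0.67 to 0.63 with a median of -0.05. Within a genotype the members therefore did not vary as 1 group. The genes most like each member by the first measure were Gsto1, Herpud1 and Abhd11 for Dok2 (r = 0.87 to 0.90), Khdc4, Gsta4 and Cd81 for Ptgds (0.88 to 0.90), and Slc6a13, Krt80 and Prkab1 for Fgf11 (0.85 to 0.88). For Zg16 they were Atp6v1e1, Gstm2 and Cers2 (0.85 to 0.89), for Krt80 Fbp1, Akr1c12 and Fgf11 (0.88 each), and for Adamtsl5 Khdc4, Ptgds and Gsta4 (0.87 to 0.89). Mapk13 was most like Mmp9, the gelatinase of neutrophil granules, Ifitm6 and S100a6 (0.88 to 0.89). Only for Mapk13 did all 3 keep r above 0.8 once group means were removed (0.83 to 0.85), against 0.16 to 0.65 for the genes like the other 6. Mmp9 averaged 18.3 FPKM in KO and 2.05 FPKM in WT GFP-low HSCs, where Mapk13 averaged 3.63 ± 3.78 FPKM in KO and 0.916 ± 0.303 FPKM in WT (SD, n = 3 each). KO GFP-low HSCs had the largest SD of Mapk13 among the GFP groups, and r was not computed without that group.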

How the data were processed

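SMART-Seq2 cDNA of polyA RNA was tagged with Nextera XT, per the labels' protocols. The 6 deposited tables, 1 per population, hold FPKM per gene and library in 40 columns, computed by the authors. The build (mm10) and the tools HOMER, STAR and DESeq2 are named in the submitters' processing notes without version or role. In each table the median ratio of libraries to the genes' geometric mean was the same, so values carry a scaling done within that table and levels were not compared between tables. Whole reads were recovered from the FPKM steps for 99.966% to 99.994% of genes (within 0.01 of a whole number), which gave the depth.

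The 7 genes and the gene lists were chosen with earlier results of these data known. KO and WT were compared within each table on log2(FPKM + 1) in limma (version 3.58.1, R 4.3.3), two-sided, with a trend in the moderation. Genes needed 1 FPKM in at least 4 libraries of total cells or 3 of the H2B-GFP cohort, and passed when p, adjusted by Benjamini-Hochberg across the whole table, was under 0.05. Differences of KO effects between total MPPs and HSCs were fitted over both tables. Members in total cells were also compared by exact two-sided permutation (14 tests, unadjusted, smallest possible p 0.0286). The fit was tested on simulated data. Named genes were the members, genes within 50 kb, the 3 most abundant genes of each family list and the 3 genes most like each member over 24 libraries. Mapk11, Mapk12, Fgf12, Fgf13, Dok3 and Ptges, which belong to the same lists as members, were added after their values were seen. The design text calls the replicates biological, with no animal, date or run given, so no batch could be examined. Replicate numbers were not taken as pairs, since the deviations of same-numbered KO and WT libraries did not correlate above 0.1 in every pair. Alternatives were a pseudocount of 0.1, no filter, rescaling to 1 total, a replicate block, voom on recovered reads and leaving out each library.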

Additional observations from a re-analysis of the deposited data

How the results depend on the processing

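In total HSCs and total MPPs no member passed the test under any of the 13 alternatives in each, and the smallest adjusted p, for Zg16 in HSCs, was 0.0651. Leaving out single libraries moved the difference in total MPPs between -0.21 and 0.11 for Dok2 and between -0.13 and 0.12 for Mapk13, and the difference of KO effects of Ptgds between -0.29 and 0.00. In GFP-high HSCs the call of Ptgds was lost with no filter and with the replicate block (0 members each), and without any 1 of the 6 libraries (0). With voom the 1 member called there was Krt80 (adjusted p = 0.0352) and not Ptgds. Krt80 was chosen on this contrast and passed the filter in it through KO libraries alone, so the call is not read as support. In GFP-low HSCs 0 to 1 members passed with a library left out, Zg16 without KO replicate 1.

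Counts over all genes were less stable, and the cause was not tested. Total HSCs had 17 genes past the test, against 2 with no filter, 6 after rescaling, 10 with the replicate block, 27 with voom, and 8 to 17 with a library left out (lowest without WT replicate 1). Total MPPs had 15, against 7 with a pseudocount of 0.1, 0 with no filter, 137 with the block, 114 with voom, and 0 (without WT replicate 2) to 194 (without KO replicate 4). GFP-low MPPs had 34, against 2 with no filter, 52 with the block and 0 to 35 with a library left out (0 without KO replicate 2, KO replicate 3 or WT replicate 3). GFP-high HSCs had 3 (0 to 2 with a library left out), GFP-low HSCs 0 (0 to 9) and GFP-high MPPs 0 (0 to 3). Same-numbered KO and WT libraries of a table correlated at -0.12 to 0.14 (median 0.05) in the H2B-GFP cohort and at -0.10 to 0.28 (median -0.03) in total cells. Reads were fewest for Zg16, Krt80 and Mapk13, whose lowest libraries held 4, 6 and 1 reads. For Zg16 this was a GFP-high MPP library, while for Krt80 and Mapk13 it was a library of the more deeply sequenced total HSCs.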
